A study of Mus musculus with 12 samples.

Results

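The CD300 receptors were followed in early blood progenitors, taken from mouse marrow, that had received a leukaemia fusion gene, a deletion mutant of it or an empty vector. The family was given by 6 gene symbols: Cd300a, Cd300c, Cd300lb, Cd300ld, Cd300lf and Cd300lg. All probe sets that the platform annotation names with 1 of these symbols were taken, which gave 6 probe sets for 5 of the 6 genes, out of 45101 probe sets and 18193 singly named genes on the array. Cd300a had 2 probe sets, Cd300lb, Cd300ld, Cd300lf and Cd300lg had 1 each, and Cd300c had 0 under that symbol. The family was selected on these data, because Cd300lb had been seen higher in the ACD mutant, so the differences between the ACD mutant and the other groups are given as a description with no test.

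CD300 receptors are surface proteins of myeloid cells with a single immunoglobulin domain, and several of them bind lipids exposed on dying cells or microbes. The family is paired. Inhibitory members carry tyrosine motifs in their tails that recruit phosphatases such as SHP-1, whereas activating members have short tails and signal through adaptors such as DAP12 or the Fc receptor gamma chain. Genes of most members lie in 1 cluster, and the receptors are best known from monocytes, neutrophils, mast cells and dendritic cells.

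The cells were sorted as lineage-negative, c-Kit+, Sca-1+ and FLT3-negative, cultured for 24 h, exposed to virus for 4 h and kept for a further 20 h, and the GFP-positive cells were profiled on 1 Affymetrix array per sample. The MIB control group, with 5 arrays numbered 3 to 7, was given empty MIB retrovirus. INV16 (4 arrays, replicates 1 to 4) received the fusion of the core binding factor subunit CBFB with the myosin MYH11, and the ACD mutant (3 arrays, replicates 1 to 3) received that fusion without its assembly competent domain, which the design text calls non-leukemogenic. All 3 groups share the sort, the culture in 10% serum with SCF at 50 ng/ml and IL-6 at 5 ng/ml, and the transduction. Expression came from a retrovirus in cultured cells a day after exposure, and the age, sex and strain of the mice are not given in the sources used here.

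INV16 replicate 4 stood apart and is given separately throughout. Its correlation with the other arrays across probe sets was 0.895 to 0.917, against 0.985 to 0.996 among the other 11. The progenitor markers Kit (10.26 to 11.43 log2) and Cd34 (11.15 to 12.35) were measured on each of those 11 arrays, and INV16 replicate 4 had Kit at 10.99, inside that range, and Cd34 at 7.39, below it. The arrays also fell into 2 sets by a spike-in control, the difference between BioC and BioB: set A, with a difference of 1.07 to 1.21 log2, held INV16 replicates 1 to 3 with MIB control replicates 3 to 5, and set B, with -0.11 to 0.07, held the others, all ACD mutant arrays among them. The ACD mutant and INV16 replicates 1 to 3 thus share no set, and only MIB control lies in both. In comparisons of these groups with each other, construct and set cannot be told apart directly. BioB alone was 7.13 to 7.49 log2 on the ACD mutant arrays and 7.71 on INV16 replicate 4, against 8.38 to 8.88 on the others. The 3' end of Gapdh exceeded its 5' end, a sign of RNA quality, by 3.64 log2 on INV16 replicate 4, by 3.17 on ACD mutant replicate 1 and by 1.10 to 1.98 on the others. The array medians ranged from 5.62 to 5.79 log2, and precision is limited by how few arrays each group holds.

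Promoter windows of Cd300lb and Cd300a, the genes on which the results turn, are shown because the fusion acts on core binding factor, whose RUNX subunits bind DNA. Each is the 250 bases before the annotated start on chromosome 11 (RefSeq, build GRCm38.p6), written 5′ to 3′ on the gene's strand, with matches in capitals to a TATA element (TATAAA) or to the core of PU.1 sites (GAGGAA), on either strand.
Cd300lb, chr11:114934372-114934621, minus strand: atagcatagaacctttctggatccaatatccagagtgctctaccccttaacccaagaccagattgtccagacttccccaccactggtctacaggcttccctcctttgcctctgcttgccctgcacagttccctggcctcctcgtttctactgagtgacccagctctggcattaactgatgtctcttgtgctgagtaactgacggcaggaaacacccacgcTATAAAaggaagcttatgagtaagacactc
Cd300a, chr11:114889791-114890040, plus strand: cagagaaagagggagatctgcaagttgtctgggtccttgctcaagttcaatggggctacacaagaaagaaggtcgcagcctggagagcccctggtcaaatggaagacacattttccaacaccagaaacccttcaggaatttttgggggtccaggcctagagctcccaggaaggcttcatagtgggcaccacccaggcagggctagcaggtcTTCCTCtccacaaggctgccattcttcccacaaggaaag
The Cd300lb window held a TATA match 30 bases before the start and no PU.1 core. The Cd300a window held a PU.1 core on the opposite strand, 39 bases before the start, and no TATA match. Neither held the RUNX core (TGTGGT or TGCGGT, either strand), which 18.6% of 32851 promoter windows of that length hold, against 23.3% for the PU.1 core and 12.4% for TATAAA. Windows were found for 5 of the 6 genes. Those of Cd300ld and Cd300lf each held a PU.1 core, Cd300lf also a TATA match, and Cd300c was the only 1 of the 5 with a RUNX core, 120 bases before its start. A match is a stretch of letters and does not show binding, and the absence of one says nothing of bases outside the window.

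Cd300lb encodes an activating receptor that signals through DAP12 and takes part in the response to bacterial lipopolysaccharide. It measured 7.40, 7.19, 5.98, 7.13 and 6.35 log2 in MIB control replicates 3 to 7. It measured 7.29, 7.73 and 7.87 in INV16 replicates 1 to 3 and 9.08, 9.38 and 9.10 in the 3 ACD mutant arrays. Each ACD mutant array lay above each MIB control and INV16 array, the lowest of them 1.20 log2 above the highest of the others. The INV16 arrays lay in the upper part of the MIB control range and above it.

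Cd300lb averaged 6.81 ± 0.61 (SD, n = 5) in MIB control. It averaged 7.63 ± 0.31 (SD, n = 3) in INV16, and the ACD mutant mean was 9.19 ± 0.17 (SD, n = 3). The ACD mutant thus lay 2.38 log2 above MIB control (SE 0.28), a 5.19-fold difference, and 1.56 log2 above INV16 (SE 0.32), a 2.94-fold difference. Among the 22689 probe sets past the expression filter, 0.661% had an ACD mutant mean at least 1 log2 above MIB control, and the Cd300lb difference ranked 1. These are the values that brought the family into view, so nothing is read from that rank. Within set B the difference from MIB control was 2.44 log2 (3 arrays against 2), and without ACD mutant replicate 1 it was 2.43. The BioB level still separated the groups within set B, at 7.13 to 7.49 log2 in the ACD mutant against 8.57 and 8.76 in MIB control. With INV16 replicate 4 put back in its group, the difference from INV16 became 2.36, and with the spike-in set as a block it was 1.67 (SE 0.49).

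INV16 against MIB control asks what the intact fusion changes within a day of transduction. The family was chosen on differences of the ACD mutant from MIB control and from INV16. This comparison shares the arrays of both those groups with that choice, so the test for Cd300lb is not independent of it. Cd300lb was 0.82 log2 higher in INV16 (SE 0.28, 95% interval 0.21 to 1.43, unadjusted p = 0.0127 and adjusted p = 0.188 by limma), 2 of the 3 INV16 arrays lying above the highest MIB control array. It did not pass the test. With INV16 replicate 4 the difference was 0.02 (adjusted p = 0.991), and within set A it was 0.78 (adjusted p = 0.436).

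**Figure D1:**
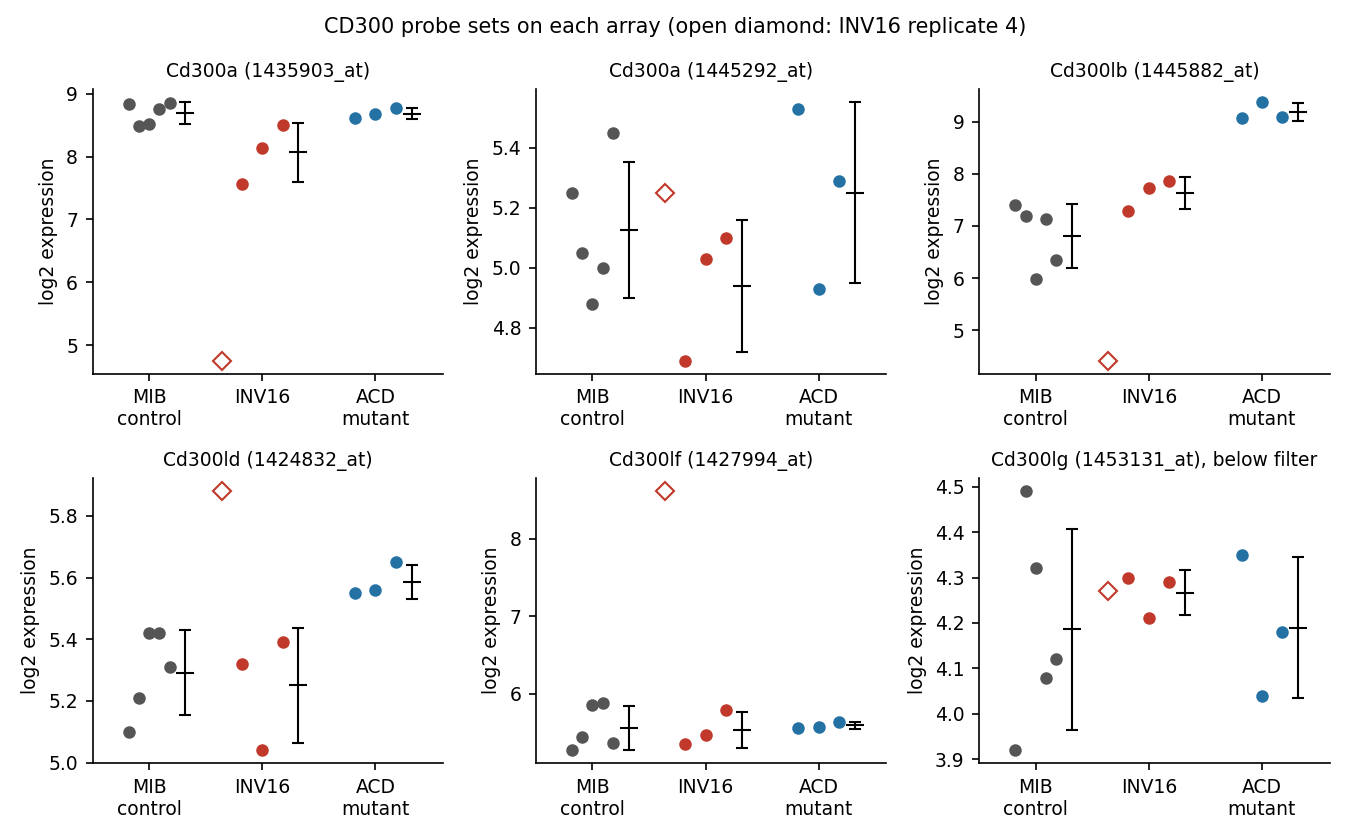
Log2 expression of the 6 CD300 probe sets in MIB control (5 arrays), INV16 (3 filled points and replicate 4 as an open diamond) and ACD mutant (3 arrays); the bar beside each group is its mean with SD, without the diamond, and each panel has its own axis. Cd300lb lay at 9.08 to 9.38 in the ACD mutant against at most 7.87 elsewhere, and the diamond lay lowest for Cd300lb and Cd300a 1435903_at and highest for Cd300lf and Cd300ld.

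Cd300ld encodes a short-tailed receptor that pairs with the Fc receptor gamma chain. Its probe set measured 5.10, 5.21, 5.42, 5.42 and 5.31 log2 in MIB control, 5.32, 5.04 and 5.39 in INV16 replicates 1 to 3, and 5.55, 5.56 and 5.65 in the ACD mutant. The ACD mutant arrays lay just above all 8 others, by 0.12 log2 at the closest, and the mean difference from MIB control was 0.29 (SE 0.11). The level of the probe set was close to the filter value of 5.07 log2. INV16 differed from MIB control by -0.04 (SE 0.11, 95% interval -0.28 to 0.21, limma adjusted p = 0.913), and the groups overlapped.

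Cd300a encodes the inhibitory receptor that binds phosphatidylserine and phosphatidylethanolamine and restrains mast cells and other myeloid cells. Its probe set 1435903_at measured 8.84, 8.48, 8.52, 8.76 and 8.85 log2 in MIB control, 7.57, 8.14 and 8.50 in INV16 replicates 1 to 3, and 8.61, 8.67 and 8.77 in the ACD mutant. INV16 lay lower, though INV16 replicate 3 fell between the lowest MIB control values, and the ACD mutant sat inside the MIB control range. The mean was 8.69 ± 0.18 (SD, n = 5) in MIB control and 8.07 ± 0.47 (SD, n = 3) in INV16, a difference of -0.62 log2 (SE 0.18, 95% interval -1.0 to -0.24, unadjusted p = 0.00376), 1.54-fold. The limma adjusted p was 0.112, so Cd300a was not called; without INV16 replicate 3 the difference was -0.83 and the adjusted p 0.0301, and without INV16 replicate 1 they were -0.37 and 0.400. With INV16 replicate 4 put back the difference was -1.45 (adjusted p = 0.319), and within set A it was -0.54 (adjusted p = 0.404).

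The ACD mutant mean of Cd300a, 8.68 ± 0.08 (SD, n = 3), differed from MIB control by 0.00 log2 (SE 0.18) and from INV16 by 0.62 (SE 0.20). Each of the 3 ACD mutant arrays lay above the 3 INV16 arrays. The other Cd300a probe set, 1445292_at, measured 4.69 to 5.53 over the 11 arrays, around the filter value. There INV16 differed from MIB control by -0.19 (SE 0.16, adjusted p = 0.648), and all 3 groups overlapped.

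Cd300lf encodes a receptor with inhibitory motifs that binds ceramide and sphingomyelin and can also associate with the interleukin 4 receptor. It measured 5.27 to 5.88 log2 in MIB control (median 5.44), 5.35, 5.46 and 5.79 in INV16 replicates 1 to 3, and 5.56, 5.57 and 5.64 in the ACD mutant, with all 3 groups overlapping. INV16 differed from MIB control by -0.03 (SE 0.16, 95% interval -0.37 to 0.31, adjusted p = 0.960). The ACD mutant differed from MIB control by 0.03 (SE 0.16). Cd300lg, whose product nepmucin is a lymphocyte adhesion molecule of endothelium, lay below the filter on each array, at 3.92 to 4.49 log2. The endothelial cadherin Cdh5 was below it too, at 4.33 to 4.75, but it was the only 1 of 11 endothelial list genes there. The other 10 passed the filter.

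**Figure D2:**
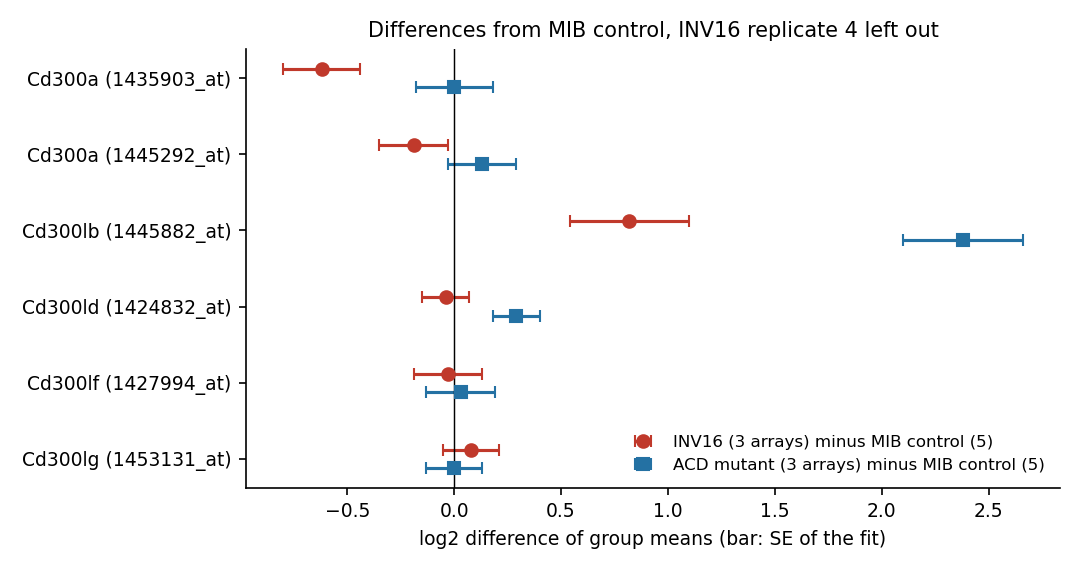
Difference of group means from MIB control (log2 units, bars are the SE of the fit) for the 6 CD300 probe sets, circles for INV16 without replicate 4 and squares for the ACD mutant. The squares of Cd300lb (2.38) and Cd300ld (0.29) lie to the right of 0, and the INV16 circles of Cd300a 1435903_at (-0.62) and Cd300lb (0.82) lie on opposite sides of it.

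Over the 5 CD300 probe sets past the filter, limma called 0 in INV16 against MIB control at an adjusted p under 0.05, where 1.38% of all 22689 probe sets were called. Those with an unadjusted p under 0.05 were 2 of the 5, Cd300a 1435903_at and Cd300lb, against 15.2% of all. The INV16 and MIB control arrays lay apart for 0 of the 5 in either direction, against 5.07% of all probe sets with INV16 below and 3.79% with INV16 above. The median difference was -0.04 log2 for the 5 and -0.02 for all. In the ACD mutant 2 of the 5, Cd300lb and Cd300ld, lay above all MIB control arrays, as did 6.83% of all probe sets, and 0 lay below, against 6.04%. Both also lay above all INV16 arrays but replicate 4, as did 4.13%. Above the INV16 arrays alone lay 3 of the 5, with Cd300a 1435903_at as the third, against 17.1% of all. The contrasts of the ACD mutant chose the family, so their counts are only a description.

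On INV16 replicate 4 the family had a different make-up. Cd300lf measured 8.61 log2, 2.73 above the highest of the other 11 arrays and 8.44-fold above the mean of the other INV16 arrays. Cd300a 1435903_at measured 4.75 and Cd300lb 4.41, which were 2.83 and 1.56 log2 below the lowest of the 11. Cd300ld, at 5.88, was 0.23 above their highest. Probe sets more than 1 log2 above all 11 arrays made up 3.82% of those past the filter, and probe sets more than 1 log2 below made up 13.3%, so low values were frequent on that array. By any margin 31.0% lay above and 38.9% below. Its mean over the mast cell and basophil list was 11.06 log2 against 8.11 to 9.51 elsewhere, and the mast cell receptor chain Fcer1a measured 13.31 against 4.27 to 5.74. The part of such cells in the CD300 values was not tested. In bulk RNA, fewer cells of a type and less RNA per cell cannot be told apart.

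Along chromosome 11, Cd300lb lies next to Cd300a, and Cd300c, Cd300ld and Cd300c2 follow, with Cd300lf at the far end of the cluster behind Rab37. Against the 2.38 of Cd300lb, the ACD mutant differed from MIB control by 0.00 for Cd300a, 0.03 for Cd300c2 and 0.29 for Cd300ld, and by 0.76 for Slc9a3r1, a scaffold protein gene on the other side of Cd300lf. Rab37, a small GTPase of secretory granules that lies beside Cd300lf, differed by 0.18 in the ACD mutant and by -0.92 in INV16 (SE 0.25, adjusted p = 0.102). Cd300c2, an activating relative for which Cd300c is an older name in the RefSeq table, measured 6.20 ± 0.14 (SD, n = 5) in MIB control and 6.19 ± 0.10 (SD, n = 3) in INV16 (-0.01, SE 0.12, adjusted p = 0.978). The cluster order and these neighbours were looked up after the values were seen.

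The genes with which CD300 receptors signal were counted with 1 probe set per gene, where 1.39% of all 12901 genes were called in INV16 against MIB control. Of 16 measured activating adaptors and kinases, 0 were called higher and 0 lower (median difference -0.05 log2, against -0.03 for all genes). DAP12, encoded by Tyrobp and the partner of Cd300lb, measured 10.10 ± 0.60 (SD, n = 5) in MIB control and 9.66 ± 0.19 (SD, n = 3) in INV16 (-0.44, SE 0.26, adjusted p = 0.473). Its ACD mutant arrays lay at 10.43, 10.48 and 10.47, inside the MIB control range of 9.65 to 11.03. Tyrobp also differed between the spike-in sets of the control, with 9.65 to 9.73 in set A against 11.03 and 10.38 in set B, and within set A INV16 differed by -0.04.

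The gamma chain gene Fcer1g differed by -0.26 (SE 0.20, adjusted p = 0.594) and the adaptor gene Hcst by -0.15 (SE 0.15, adjusted p = 0.691). The product of the kinase gene Syk acts below DAP12 and the gamma chain. Syk had a MIB control mean of 10.10 ± 0.34 (SD, n = 5) and an INV16 mean of 9.57 ± 0.11 (SD, n = 3) (-0.53, SE 0.17, adjusted p = 0.154). The ACD mutant arrays had Syk at 10.68, 10.72 and 10.45, and the highest MIB control array at 10.59, so these groups overlapped. In the ACD mutant this probe set differed from MIB control by 0.52, and the 3 other Syk probe sets by 0.04, -0.41 and -0.15. In INV16 those 3 differed by -0.29, -0.29 and -0.68, and none passed. Within set A the difference was -0.05 for Fcer1g, 0.03 for Hcst and -0.30 for Syk, each nearer to 0 or past it.

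On the inhibitory side, phosphatases and Csk, 1 of 5 measured genes fell in INV16 and 0 rose (median -0.14). It was Csk, a kinase that holds Src family kinases inactive. Csk measured 8.14, 8.55 and 8.55 log2 in INV16 replicates 1 to 3, below all MIB control arrays. Those had 9.23, 9.16, 9.19, 9.57 and 9.76, and the ACD mutant had 9.35, 9.56 and 9.64. The difference was -0.97 (SE 0.16, limma adjusted p = 0.0126), and it was -0.93 (adjusted p = 0.0427) with INV16 replicate 4, itself at 8.55. Without INV16 replicate 1 it was -0.84 and lost the call (adjusted p = 0.0881), and within set A alone it was -0.78 (adjusted p = 0.119). With the spike-in set as a block over the 11 arrays the call was kept (-0.78, adjusted p = 0.0273). The phosphatase genes Ptpn6 (SHP-1; -0.26, SE 0.17, adjusted p = 0.521) and Inpp5d (SHIP-1; -0.14, SE 0.13, adjusted p = 0.662) did not pass, and within set A they differed by -0.07 and -0.04. Inpp5d was 10.55 to 10.81 in the ACD mutant against 10.14 to 10.50 in MIB control, a difference that its other probe set (0.01) did not share.

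Among 8 measured co-receptors and ligand partners 1 fell and 0 rose in INV16 (median 0.03). The interleukin 4 receptor alpha chain Il4ra, with which the Cd300lf product can associate, measured 7.08, 7.49 and 7.63 log2 in INV16 replicates 1 to 3. MIB control had 8.82, 8.18, 8.76, 9.24 and 8.70, and the ACD mutant had 8.38, 8.82 and 8.73, so the INV16 arrays lay below all of both. The difference from MIB control was -1.34 (SE 0.20, limma adjusted p = 0.00898) and -1.18 within set A alone (adjusted p = 0.119). With the spike-in set as a block the call was kept (-1.18, adjusted p = 0.0356). INV16 replicate 4 measured 8.47, and with it the call was lost (-1.07, adjusted p = 0.180), as it was without INV16 replicate 1 (-1.18, adjusted p = 0.0682). The other Il4ra probe sets differed by -0.41 and -0.31 and did not pass. The lipopolysaccharide receptor genes Tlr4 (0.30, SE 0.18, adjusted p = 0.474) and Cd14 (0.35, SE 0.32, adjusted p = 0.676), whose products act with that of Cd300lb, did not pass either, and within set A they differed by 0.15 and 0.34.

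**Figure D3:**
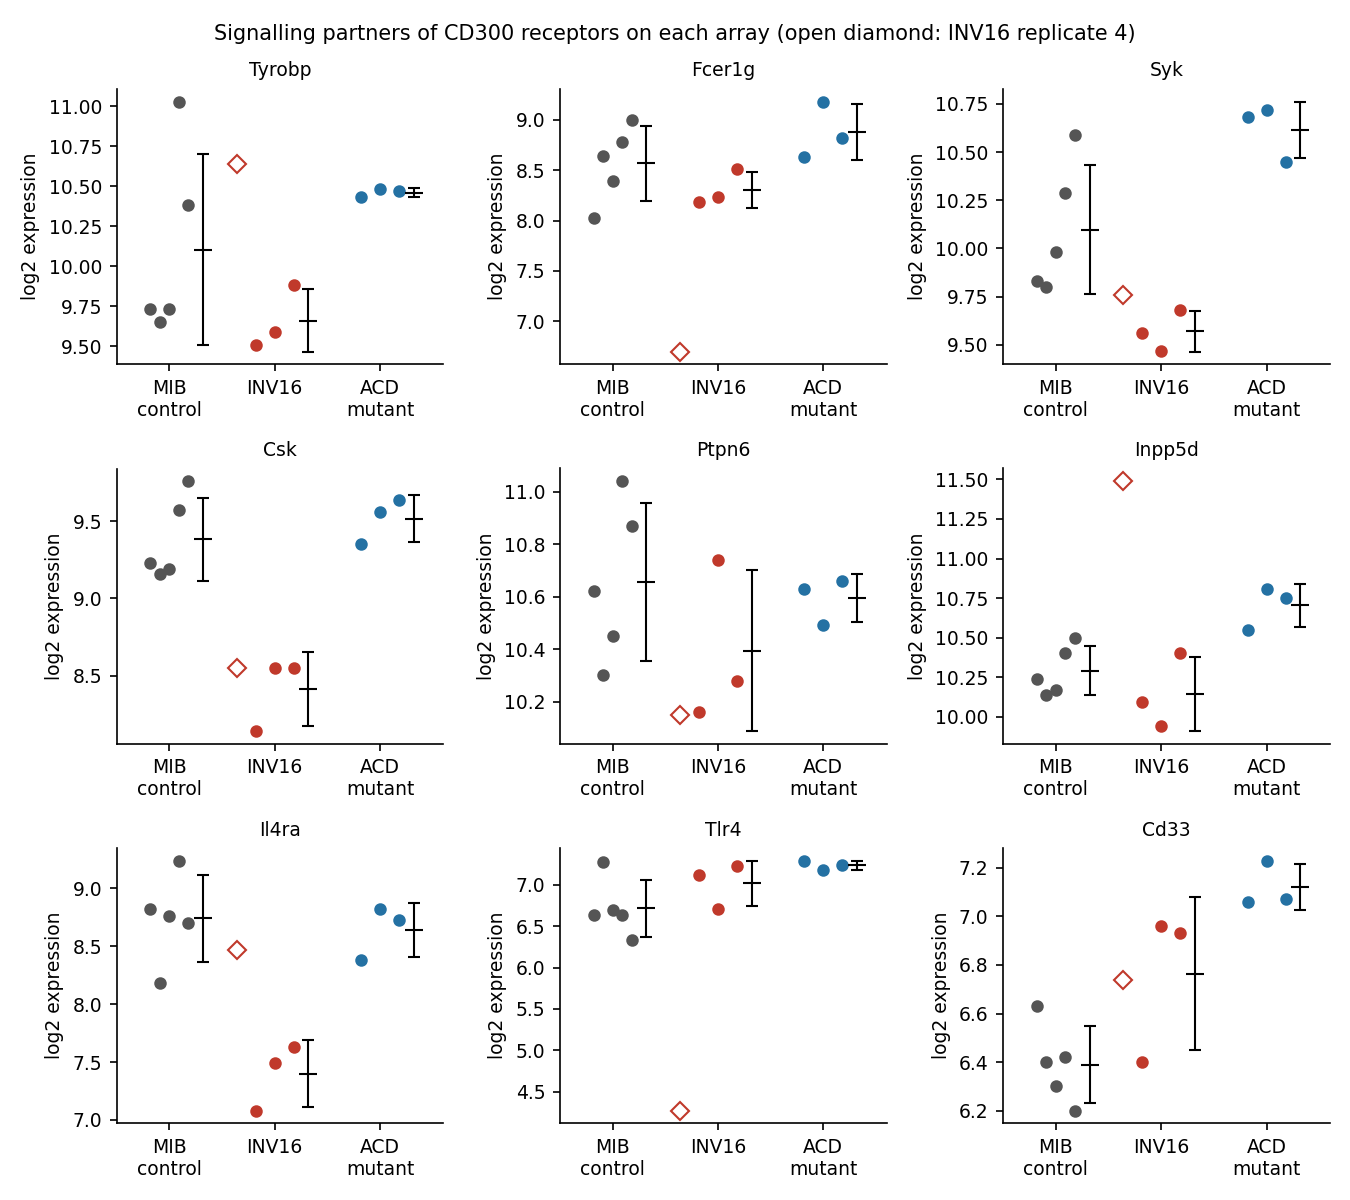
Log2 expression of signalling partners of CD300 receptors by array, with the probe set of highest mean per gene and its own axis; groups, bars and the open diamond (INV16 replicate 4) are as in the plot of the CD300 probe sets. Csk and Il4ra lie lower in INV16 replicates 1 to 3 than in all MIB control arrays, and Cd33 lies at 7.06 to 7.23 in the ACD mutant against at most 6.96 elsewhere.

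Of 6 measured relatives by sequence, among them Cd300c2 and the TREM genes, 0 were called in INV16 against MIB control (median 0.15 log2). Of 22 other paired myeloid receptors 0 were called as well (median -0.01). Cd33, an inhibitory receptor for sialic acid, measured 6.39 ± 0.16 (SD, n = 5) in MIB control, 6.76 ± 0.31 (SD, n = 3) in INV16, and its ACD mutant mean was 7.12 ± 0.10 (SD, n = 3). The INV16 difference was 0.37 (SE 0.14, adjusted p = 0.231) and the ACD mutant difference 0.73. The ACD mutant lay above all MIB control arrays for 3 further genes of these lists, Treml2 (0.37), Siglecf (0.53) and Milr1 (0.40), chosen here after their values were seen, and 6.85% of all genes did so. It lay below all of them for Siglece (-0.16). Cd244a (-0.88) and Clec5a (-0.81) had lower means in the ACD mutant with overlap, and these were also chosen after the values were seen.

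The genes closest in pattern to each measured CD300 gene were taken by Pearson's r over the 11 arrays, as a description. For Cd300lb they were Crebbp (r = 0.952), Dcaf17 (r = 0.932) and Cd33 (r = 0.928). As the ACD mutant arrays stand apart for Cd300lb, these values hold the group difference. Over the 8 other arrays r was 0.836, 0.812 and 0.838. Those 8 are among the 11 on which the genes were picked, so these r values are no separate check. The Crebbp probe set, for a histone acetyltransferase, lay 1.53 log2 above MIB control in the ACD mutant, and the 3 other measured Crebbp probe sets lay 0.24 to 0.34 above it. The Dcaf17 probe set differed by 0.71 and its 2 others by 0.15 to 0.42. Cd300lb and Cd33 have no second probe set past the filter to compare. For Cd300a the closest were Aatk (r = 0.946), Lhfpl2 (0.942) and Zfp111 (0.936), for Cd300ld Gdpgp1 (0.937), Myo1f (0.933) and Rai1 (0.926), and for Cd300lf Dhdds (0.946), Bud23 (0.911) and Bin1 (0.903). All share the same arrays and their scaling.

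Several marker lists had median differences above 0 in the ACD mutant, without a test. The array means of the mast cell, monocyte and erythroid lists overlapped those of MIB control. The part of such cells in the Cd300lb difference was not tested. All ACD mutant arrays were in spike-in set B, so MIB control means are also given by set. The mast cell and basophil list (7 of 13 genes past the filter; Fcer1a, Cma1, Tpsab1, Mcpt4, Il4 and Mrgprb1 below it) had a median difference of 1.12 log2 from MIB control, and its mean was 9.31 to 9.51 log2 in the ACD mutant against 8.11 to 9.33 in MIB control. MIB control had 8.11 to 8.67 in set A, and 8.53 and 9.33 in set B. The monocyte and macrophage list had 14 of 15 genes above 0 (median 0.38), with a mean of 8.60 to 8.69 against 7.67 to 8.80. By set, the MIB control means were 8.06 to 8.19 in set A, and 8.80 and 7.67 in set B. The monocyte receptor Csf1r was 0.98 log2 higher, at 9.86 to 10.52 against 8.32 to 10.45.

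The erythroid and megakaryocyte list had 8 of 8 genes above 0 (median 0.57), with a mean of 8.79 to 9.03 in the ACD mutant. MIB control had 7.83 to 8.03 in set A, and 8.24 and 9.38 in set B. Interferon response genes had 18 of 19 above 0 (median 0.55), with a mean of 7.46 to 8.37 in the ACD mutant. Their MIB control means were 6.76 to 7.39 in set A, and 6.90 and 7.12 in set B. Over all genes 51.2% lay above 0, with a median of 0.01. The medians of the other lists were 0.29 (stem and progenitor), -0.09 (neutrophil), 0.07 (dendritic cell), 0.17 (endothelium) and 0.05 (lymphoid). In INV16 against MIB control the list medians were 0.38 for stem and progenitor, -0.19 for mast cell and basophil, -0.26 for monocyte and macrophage, -0.34 for neutrophil, -0.08 for dendritic cell, 0.15 for endothelium, -0.41 for erythroid and megakaryocyte, 0.04 for lymphoid and -0.06 for interferon response genes.

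Some marker genes were called in INV16, and their part in the lower Cd300a and higher Cd300lb values there was not tested. Of the marker lists, 1 of 13 stem and progenitor genes, 1 of 15 monocyte and macrophage genes and 1 of 8 dendritic cell genes rose (Procr by 1.48, F13a1 by 1.61 and Tcf4 by 0.75 log2; limma adjusted p = 0.0314, 0.0222 and 0.0226). In the mast cell and basophil list 1 of 7 genes fell, Rab44 (-0.54, adjusted p = 0.0438), and in the neutrophil list 1 of 11, S100a8 (-3.08, SE 0.56, adjusted p = 0.0190). S100a8, a calcium-binding protein gene abundant in neutrophils, measured 5.03, 5.30 and 5.48 in INV16 replicates 1 to 3, below all MIB control arrays, which had 6.97 to 10.28. Among 7 lymphoid genes 1 fell, Nkg7 (-0.73, adjusted p = 0.0198), and 1 rose, Dntt (3.04, SE 0.60, adjusted p = 0.0285), the polymerase gene of early lymphoid cells, at 11.09, 10.81 and 7.75 in INV16 against at most 7.21 in MIB control. The other Dntt probe set past the filter rose by 2.78 (adjusted p = 0.0492), and 1 below it differed by 0.93. Over all 12901 genes 1.39% were called with the 11 arrays. With all 12 arrays 0 genes of these lists were called, where over all genes only 1 was called higher and 22 lower.

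The lymphoid list mean lay wholly above MIB control in INV16, at 7.09 to 7.36 against 6.75 to 6.99. That mean of 7 genes includes Dntt, with its difference of 3.04, and the median difference of the list was only 0.04. The neutrophil mean was 8.09 to 8.54 against 8.44 to 10.06, with 2 of the 3 INV16 arrays below all MIB control arrays. The monocyte and macrophage mean, 7.91 to 8.26 against 7.67 to 8.80, the mast cell and basophil mean, 8.39 to 8.54 against 8.11 to 9.33, and the stem and progenitor mean, 9.60 to 10.34 against 9.64 to 9.87, overlapped.

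**Figure D4:**
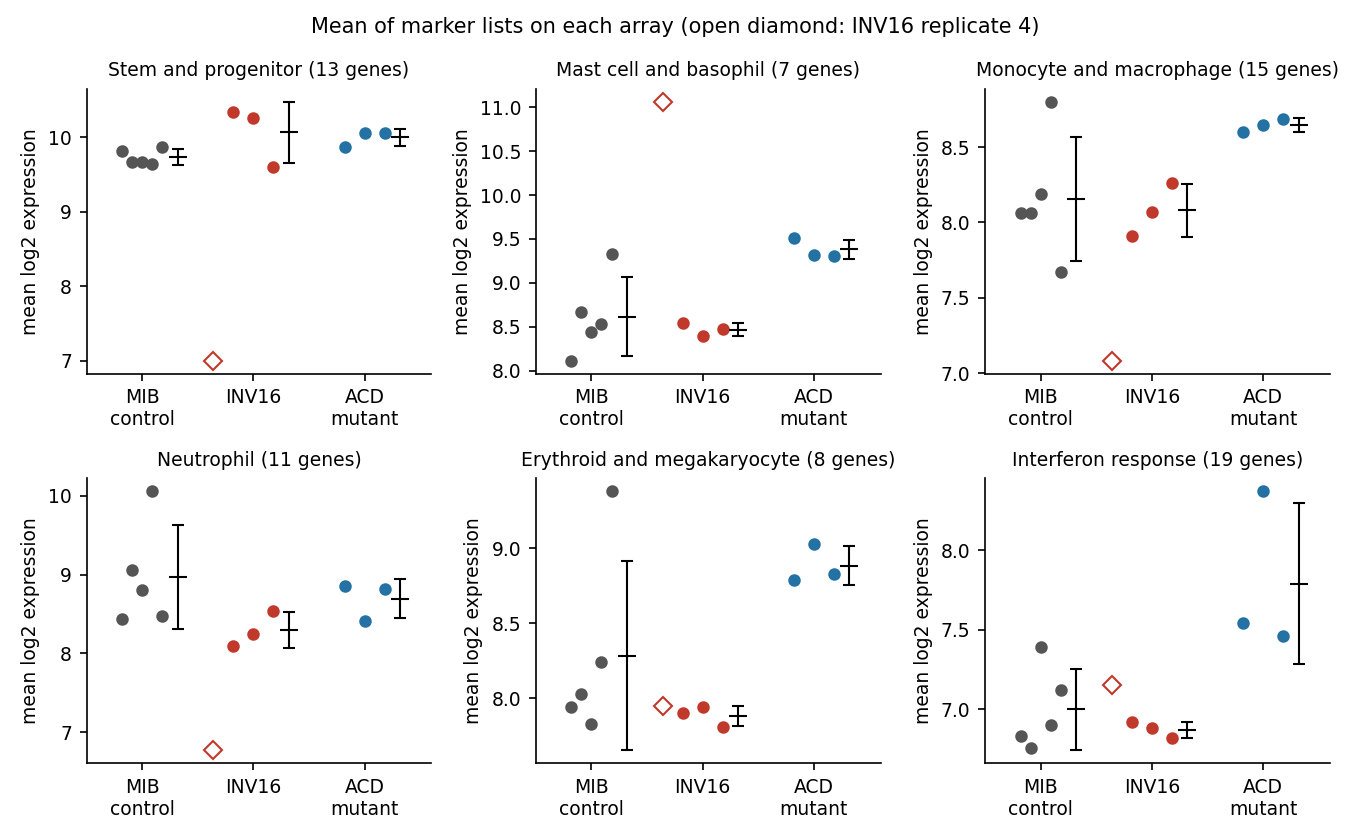
Mean log2 expression of 6 marker lists by array (genes past the filter, number in each title), with groups, bars and the open diamond as in the plot of the CD300 probe sets. The ACD mutant means of the mast cell, monocyte and erythroid lists lie in or near the upper part of the MIB control range, and INV16 replicate 4 is highest for mast cell genes (11.06) and lowest for stem and progenitor genes (7.00).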

How the data were processed

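Per the labels' protocols, RNA was amplified in repeated cDNA cycles and biotin-labelled; each sample was read on 1 Affymetrix array. The deposited table holds 45101 probe sets as log2 values deposited by the authors; the base of the logarithm is inferred from their range (2.82 to 14.97), and background correction, normalisation and summarisation are not given in the sources used here. Without a background reading, the differences of dim probe sets may be understated.

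Names came from the platform annotation: 34945 probe sets with 1 symbol and no control role were used, and 932 with several symbols and 9211 with none were not. The Entrez identifiers of 34741 were found in the RefSeq gene table, including all 6 CD300 probe sets. The 22689 probe sets with a mean over 11 arrays above the 40th percentile (5.07 log2) were tested, 5 of the 6 CD300 sets among them; Cd300lg, below it, was fitted without the filter. Lists used 1 probe set per gene, that with the highest mean (12901 genes).

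A limma (version 3.58.1, R version 4.3.3) model with 1 mean per group was fitted to 11 arrays, without INV16 replicate 4, moderated by eBayes (residual degrees of freedom 8, prior 4.66), two-sided, Benjamini-Hochberg adjusted over all probe sets tested, called at an adjusted p under 0.05. The fit was tested on simulated data. Per the design text replicates were separate sorts, transductions and analyses. No 2 arrays shared their values: the smallest SD of the difference within a group was 0.224. Of the table's sample columns, 0 were left out.

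The family and the gene lists were chosen with earlier results of these data known. The text names all CD300 probe sets, the genes of the signalling, relative and paired-receptor lists called in INV16, 9 partners whatever their test (Tyrobp, Fcer1g, Hcst, Ptpn6, Inpp5d, Syk, Tlr4, Cd14 and Cd33) and the 3 genes most like each CD300 gene; marker genes called in INV16, other markers and neighbours are outside that rule and were named after their values were seen. Replicate numbers gave no sign of pairing the samples: of 5 same-numbered pairs across groups, deviations from the group means correlated at -0.32 to 0.03. With so few arrays in each group, this check cannot exclude pairing. Alternatives were all 12 arrays, quantile normalisation, other filters, 1 probe set per gene, fits to only the groups compared, blocks by replicate number and by spike-in set, another variance moderation and leaving out each array.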

Additional observations from a re-analysis of the deposited data

Results flagged for a closer look

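INV16 replicate 4, left out of the comparisons, gave 4 flags over the CD300 probe sets. Its Cd300lb value of 4.41 log2 lay far below the other 3 INV16 arrays, with a gap of 0.830 of the whole range of the group, and its Cd300lf value of 8.61 lay far above them, with a gap of 0.866. Chance alone gives such a gap in about 1 of 20 groups, and 12 groups were checked. That rate does not hold for these flags, as this array was already known to stand apart and the groups share arrays. The same Cd300lf value of 8.61, and the Cd300ld value of 5.88, were also above the level of all MIB control arrays (at most 5.88 for Cd300lf and 5.42 for Cd300ld).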

How the results depend on the processing

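No CD300 probe set passed limma in INV16 against MIB control under 19 of 20 alternatives; leaving out 1 array at a time gave 0 to 1, the 1 being Cd300a 1435903_at without INV16 replicate 3. Cd300a stayed below 0 in all 20 (-1.45 to -0.37, adjusted p 0.0301 to 0.515) and Cd300lb above 0 in all 20 (0.02 to 0.99, adjusted p 0.0885 to 0.991). The Cd300lb difference of the ACD mutant ranged from 1.87 to 2.52 against MIB control and from 1.38 to 2.36 against INV16, the highest being that with all 12 arrays; leaving out 1 array gave 2.17 to 2.52 and 1.38 to 1.68. With all 12 arrays the ACD mutant minus INV16 difference of Cd300lf turned from 0.06 to -0.71 and that of Cd300a rose from 0.62 to 1.45, as the array at 8.61 and 4.75 entered the INV16 mean, and the co-receptor count fell from 1 to 0. The fit with the replicate number as a block rests on 1 shared number for MIB control. In it 0 CD300 probe sets were called, with Cd300a at -0.52 (adjusted p = 0.515) and Cd300lb at 0.31 (adjusted p = 0.646). Csk (-0.69, adjusted p = 0.340) and Il4ra (-1.26, adjusted p = 0.173) were not called in it either. With this block the ACD mutant minus MIB control differences of Cd300ld and Cd300lf became 0.59 and 0.47. That fit, for the ACD mutant, and the fits within a spike-in set were added after the data were seen, as were all alternatives for Csk (adjusted p 0.00943 to 0.340) and Il4ra (0.00324 to 0.180). Each CD300 gene but Cd300a rests on 1 probe set, and signal near the filter limits Cd300ld, Cd300lf and Cd300lg.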
